A study of Mus musculus with 8 samples.

Results

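The genes of CXC chemokines and of fractalkine were followed in pancreatic tissue of Bach2 knockout (Bach2KO) and wild type (Bach2WT) mice. The genes were taken by name from the deposited table, and all 10 members were found among its 21434 entries. They are Cxcl1, Cxcl2, Cxcl5, Cxcl9, Cxcl10, Cxcl12, Cxcl13, Cxcl14, Cxcl16 and Cx3cl1. Tissue came from 8 untreated mice at 18 weeks of age, 4 per genotype. In either genotype, mice 1 and 2 were female and mice 3 and 4 were male. All mice belonged to the strain C57BL/6N-Bach2tm1b(EUCOMM)Wtsi/leg, which carries a Bach2 allele after excision by Cre, so that the knockout was constitutive and not restricted to a tissue. Bach2KO mice carried the knockout genotype and Bach2WT mice the wild type genotype of the same strain. RNA was isolated from homogenized pancreas, selected for poly(A) tails and sequenced as paired-end reads, and each mouse gave 1 library.

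Chemokines are small secreted or membrane-bound proteins that guide leukocytes along concentration gradients through receptors coupled to G proteins. CXC chemokines with a Glu-Leu-Arg motif before the first cysteines, such as Cxcl1, Cxcl2 and Cxcl5, attract neutrophils, whereas the interferon-inducible ligands Cxcl9 and Cxcl10 attract activated T cells and NK cells through Cxcr3. Cxcl12, Cxcl13 and Cxcl14 are produced in tissues at rest, and Cxcl16 and fractalkine (encoded by Cx3cl1) are made as transmembrane proteins whose ectodomains are released by the sheddases Adam10 and Adam17. Bach2 is a transcriptional repressor of lymphocytes, and the comparison asks whether its loss goes along with other levels of these signals in the pancreas.

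The libraries held 72299745 to 172029360 counts on genes. Bach2 itself was counted 16, 3, 12 and 14 times in Bach2KO mice 1 to 4 and 4, 4, 31 and 6 times in Bach2WT mice 1 to 4, with mean levels of 0.0915 ± 0.0515 and 0.0943 ± 0.0844 CPM (counts scaled to a common library total; SD, n = 4 each; exact permutation p = 0.943). A count over the whole gene does not check the excised part, so the genotypes rest on the labels. The library of Bach2KO mouse 3 stood apart on the first principal component (101.8, against -34.8 to 7.22 for the other 7 libraries, with 23.3% of the variance), and values without it stand beside the results that it moved most. The tissue label was in keeping with the acinar markers, whose 7 genes summed to 302951 to 347848 CPM in Bach2KO and to 319836 to 441995 CPM in Bach2WT mice (ratio of means 0.816, exact permutation test, p = 0.0857). The acinar enzymes Cpa1 and Prss2, named after their values were seen, had log2 fold changes of -0.53 (SE 0.15) and -0.57 (SE 0.18; edgeR, adjusted p = 0.513 and 0.531), and the part of acinar content in the levels of the chemokines was not tested.

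Of the 10 members, 6 lie on mouse chromosome 5, in the order Cxcl5, Cxcl1, Cxcl2, Cxcl9, Cxcl10 and Cxcl13 (GRCm39 coordinates of the deposited table). Cxcl1 (chr5:91039100-91040974, plus strand) and Cxcl2 (chr5:91051730-91053797, plus strand) are 10.8 kb apart. Cxcl9 (chr5:92469206-92475938, minus strand) and Cxcl10 (chr5:92494497-92496748, minus strand) are separated by 18.6 kb. Cxcl5 lies at chr5:90907219-90909483 and Cxcl13 at chr5:96104810-96108927, both on the plus strand. Cxcl12 is on chromosome 6 (117145496-117158328, plus strand), Cxcl14 on chromosome 13 (56436456-56444364, minus strand), Cxcl16 on chromosome 11 (70344809-70350810, minus strand) and Cx3cl1 on chromosome 8 (95498637-95509055, plus strand).

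The 250 bases before the annotated start were given for 8 of the 10 members in the RefSeq promoter windows of build GRCm38.p6 and not for Cxcl5 and Cxcl16. The windows were searched for 4 motifs on both strands, and matches at the same position were counted once. GGNNNTTCC stands for an NF-kB site, GAAANNGAA for an interferon-stimulated response element, TTCNNNGAA for the gamma-activated site, and TGAGTCA for the AP-1 site that is also the core of the Maf recognition element bound by Bach2 with small Maf proteins. GGNNNTTCC was found in 5 member windows (Cxcl1, Cxcl2, Cxcl9, Cxcl10 and Cx3cl1) and in 15.7% of the 32544 windows of all genes. GAAANNGAA was found in 3 (Cxcl9, Cxcl10 and Cxcl14) and in 7.15% of all windows, TTCNNNGAA in 1 (Cxcl14) and in 7.04%, and TGAGTCA in 1 (Cxcl10) and in 4.46%. The windows of Cxcl12 and Cxcl13 held none of the 4 letter strings. A match describes letters in the reference and not a binding event.

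The windows of the interferon-inducible pair are shown whole because Cxcl9 had counts in every Bach2KO library and in no Bach2WT library, with motif matches in capitals (Cxcl9, chr5:92328080-92328329, and Cxcl10, chr5:92348890-92349139, both GRCm38.p6, minus strand, 5′ to 3′). In Cxcl9, GAAATGGAA begins 175 bases before the start and the NF-kB strings begin 130 and 42 bases before it. In Cxcl10, GAAAGTGAA begins at 213, the NF-kB strings at 158 and 103, and TGAGTCA at 74 bases before the start.
Cxcl9: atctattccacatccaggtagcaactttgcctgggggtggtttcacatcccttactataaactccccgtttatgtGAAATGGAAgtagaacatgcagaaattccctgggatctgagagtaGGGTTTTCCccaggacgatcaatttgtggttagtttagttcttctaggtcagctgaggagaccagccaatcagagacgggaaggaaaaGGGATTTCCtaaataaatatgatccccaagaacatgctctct
Cxcl10: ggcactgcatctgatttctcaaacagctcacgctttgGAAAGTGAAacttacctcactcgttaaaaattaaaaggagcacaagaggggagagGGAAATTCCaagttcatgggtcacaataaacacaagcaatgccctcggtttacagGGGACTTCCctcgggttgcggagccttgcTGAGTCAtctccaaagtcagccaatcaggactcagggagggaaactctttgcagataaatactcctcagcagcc

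The neutrophil-attracting neighbours Cxcl1 and Cxcl2 and fractalkine are shown over the 60 bases from 110 to 51 before the start, which hold all of their matches to the NF-kB string (capitals). These stretches are chr5:90891135-90891194 for Cxcl1, chr5:90903789-90903848 for Cxcl2 and chr8:94772070-94772129 for Cx3cl1, all GRCm38.p6, plus strand. Cxcl1 and Cxcl2 share the string GGAATTTCC, which begins 70 bases before the start in the former and 96 bases before it in the latter.
Cxcl1: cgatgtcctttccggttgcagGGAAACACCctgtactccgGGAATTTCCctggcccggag
Cxcl2: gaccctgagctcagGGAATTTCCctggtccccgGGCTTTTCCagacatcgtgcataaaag
Cx3cl1: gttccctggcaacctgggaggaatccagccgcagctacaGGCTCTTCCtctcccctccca

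Levels per gene length were compared in FPKM (counts per kilobase of gene on the authors' common scale). All 10 members were weakly expressed in the pancreas. Averaged over the 8 libraries, Cxcl13 was highest with 0.714 FPKM, followed by Cxcl14 with 0.398, Cxcl12 with 0.340 and Cxcl16 with 0.260 FPKM. Cx3cl1 had 0.101 FPKM. The other 5 were lower, with Cxcl10 at 0.0257, Cxcl9 at 0.0244, Cxcl5 at 0.0118, Cxcl1 at 0.0114 and Cxcl2 at 0.00785 FPKM. The ranges over the 8 libraries overlapped between all neighbours in this order, so no neighbouring pair was separated beyond its spread. Cxcl13 made up 37.7% of the summed mean FPKM of the members, but its values ran from 0 to 2.61 FPKM, whereas Cxcl12 stayed between 0.182 and 0.458 FPKM. Among all genes in the table, the mean FPKM of Cxcl13 stood at percentile 83.1 and that of Cxcl2 at percentile 20.5.

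**Figure D1:**
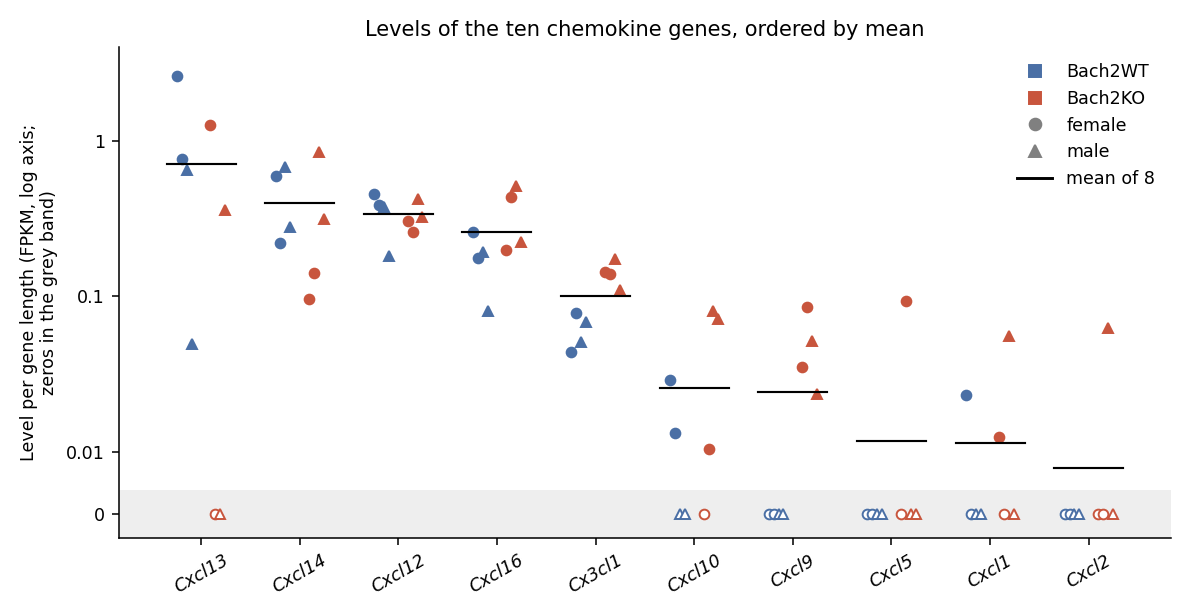
Level of each member in FPKM on a log axis, ordered by the mean of the 8 libraries (black lines), with circles for females, triangles for males, blue for Bach2WT and red for Bach2KO; zeros are open symbols in the grey band. Cxcl13 leads the order with a mean of 0.714 FPKM and spans from 0 to 2.61 FPKM, and the 5 lowest members have zeros in at least 3 of the 8 libraries.

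In the comparison of genotypes, 5 members (Cxcl12, Cxcl13, Cxcl14, Cxcl16 and Cx3cl1) passed edgeR's filter on low counts (filterByExpr) and were tested with edgeR among 12820 genes. None of them passed the adjusted threshold of 0.05 (Benjamini-Hochberg), which 0.0078% of all tested genes passed (1 gene). At an unadjusted p under 0.05, 2 of the 5 were higher in Bach2KO mice (Cxcl16 and Cx3cl1), against 3.9% of all tested genes, and 0 were lower, against 3.56%. With DESeq2, 1 of the 7 members with an adjusted p was called (Cxcl9, higher in Bach2KO mice), against 0.335% of the genes with an adjusted p there that were called higher. With edgeR and no filter on low counts, 0 of 10 members passed the adjusted threshold and 4 had an unadjusted p under 0.05 with higher values in Bach2KO mice (Cxcl5, Cxcl9, Cxcl16 and Cx3cl1), against 4.65% of all 21434 genes. Cxcl9 and Cx3cl1 had CPM values without overlap between Bach2KO and Bach2WT mice, both higher in Bach2KO mice, which held for 2.01% of all genes in that direction. The median log2 fold change of the 5 tested members was -0.08, beside 0.05 over all tested genes.

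**Figure D2:**
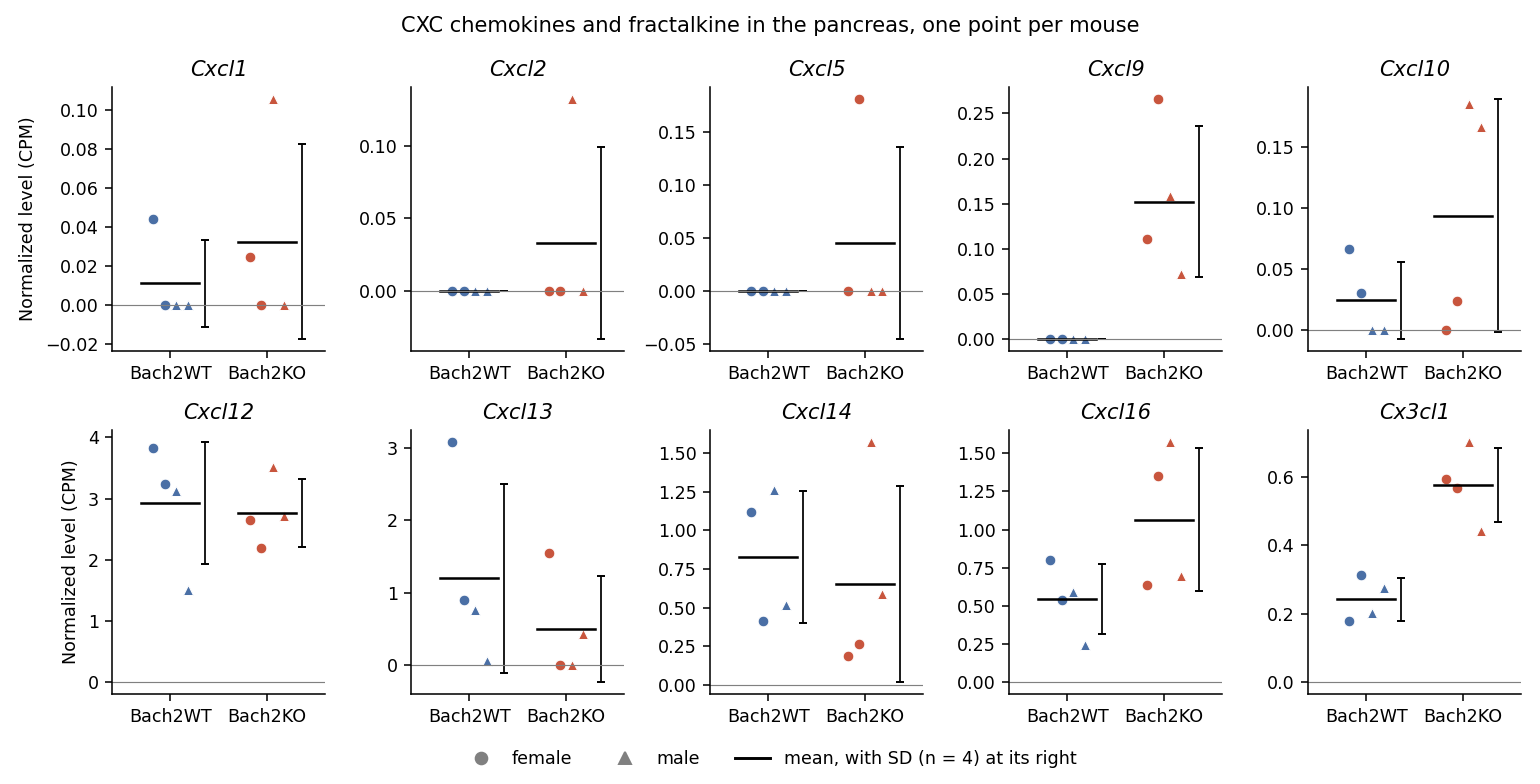
Normalized CPM of the 10 members in each mouse, with circles for females, triangles for males, a black line for the mean and a bar for the SD of each group (n = 4); each panel has its own scale. The 4 Bach2KO mice lie above the 4 Bach2WT mice for Cxcl9 (0.0725 to 0.266 CPM against 0) and for Cx3cl1 (0.440 to 0.700 against 0.178 to 0.312 CPM), and the groups overlap in the other 8 panels.

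Of the interferon-inducible ligands, Cxcl9 was counted in every Bach2KO mouse and in no Bach2WT mouse. Its counts were 18, 22, 12 and 14 in Bach2KO mice 1 to 4, or 0.111, 0.266, 0.159 and 0.0725 CPM, and 0 in each of the 4 Bach2WT mice. The groups did not overlap, and both sexes of Bach2KO mice had counts. The mean was 0.152 ± 0.0835 CPM in Bach2KO mice (SD, n = 4), which was at least 5.06-fold higher than the level that 3 counts per library would give in the Bach2WT mice (exact permutation test, two-sided p = 0.0286, the smallest that 4 against 4 can give). If featureCounts counted the 2 mates of a fragment separately, the limit is 6 counts per library and the bound 2.53-fold. These limits cover counting error only.

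Cxcl9 did not pass edgeR's filter. Without the filter its p was 7.02e-04 and its adjusted p was 0.114 in edgeR, whereas its adjusted p was 0.0107 in DESeq2. The DESeq2 call depended on single libraries. It was lost without Bach2KO mouse 2 (adjusted p = 0.258) and without Bach2WT mouse 3 (adjusted p = 0.0514), held without each of 5 other libraries (adjusted p = 0.0149 to 0.0485), and DESeq2 gave no adjusted p without Bach2KO mouse 3.

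The neighbouring Cxcl10, which like Cxcl9 is a ligand of Cxcr3, did not separate the genotypes. It was counted 0, 2, 14 and 32 times in Bach2KO mice 1 to 4 and 6, 4, 0 and 0 times in Bach2WT mice 1 to 4. In the males both Bach2KO libraries had counts and both Bach2WT libraries had none, whereas in the females the Bach2WT libraries were the higher ones. The means were 0.0937 ± 0.0951 CPM in Bach2KO and 0.0243 ± 0.0317 CPM in Bach2WT mice (SD, n = 4 each), with p = 0.343 in the exact permutation test. The third ligand of this receptor, Cxcl11, had 2 counts in each genotype.

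The receptor Cxcr3 had 26, 8, 28 and 24 counts in Bach2KO mice 1 to 4 and 1, 8, 22 and 0 counts in Bach2WT mice 1 to 4, with a log2 fold change of 1.64 (SE 1.04; edgeR, adjusted p = 0.788). Ifng, the cytokine that induces these ligands, had no entry among the 21434 genes and could not be analysed. Of the 8 genes listed for its signalling, 7 were tested, and 2 had an unadjusted p under 0.05, both higher in Bach2KO mice, against 3.9% of all tested genes. The list median log2 fold change was 0.66, beside 0.05 over all tested genes, and 0.37 without Bach2WT mouse 4. Irf1, a transcription factor induced by interferons, had 0.933, 1.80, 1.19 and 2.28 CPM in Bach2KO mice 1 to 4 and 0.822, 0.846, 0.912 and 0.518 CPM in Bach2WT mice 1 to 4.

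For Irf1, the lowest Bach2KO value (0.933 CPM, mouse 1) was close to the highest Bach2WT value (0.912 CPM, mouse 3). The genotypes did not overlap in CPM, as for 2.01% of all genes in this direction, but overlapped in FPKM, where these mice had 0.223 and 0.227. Its log2 fold change was 1.00 (SE 0.34; edgeR, adjusted p = 0.552). The kinase Jak1 (-0.16 on the log2 scale) and the receptor chain Ifngr1 (0.66) did not pass the unadjusted threshold.

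T cells and NK cells respond to Cxcr3 ligands, and dendritic cells are among their sources. The 7 T cell markers, led by Lck and Cd4, summed to 0.664 to 2.62 CPM in Bach2KO and 0.187 to 1.74 CPM in Bach2WT mice. For the 6 NK cell markers, led by Nkg7 and Gzma, the sums were 0.169 to 0.740 and 0.0288 to 0.222 CPM. Exact permutation tests gave p = 0.4 for the T cell sums and p = 0.0857 for the NK cell sums. Each list was at a low level. The 6 dendritic cell markers, led by Zbtb46 and Itgax, summed to 1.16 to 1.71 CPM in Bach2KO and to 0.822 to 1.14 CPM in Bach2WT mice and did not overlap (exact permutation test, p = 0.0286). Zbtb46, the largest part of this sum, itself overlapped (0.766 to 1.37 CPM in Bach2KO and 0.648 to 0.806 CPM in Bach2WT mice). Taken singly, 0 of the 6 genes separated the genotypes, and 0 of the 2 tested had an unadjusted p under 0.05. The part of these cells in the Cxcl9 values was not tested. In bulk tissue, more cells of a type and more RNA per cell cannot be told apart.

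The transmembrane chemokines were the tested members with the lowest p-values. Cx3cl1, which is made by endothelium and epithelium and holds leukocytes that carry Cx3cr1, had 96, 47, 53 and 85 counts in Bach2KO mice 1 to 4 and 16, 41, 29 and 19 counts in Bach2WT mice 1 to 4. Normalized for library size, these were 0.593, 0.568, 0.700 and 0.440 CPM in Bach2KO and 0.178, 0.312, 0.202 and 0.274 CPM in Bach2WT mice. Every Bach2KO mouse lay above every Bach2WT mouse.

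The mean of Cx3cl1 was 0.575 ± 0.107 CPM in Bach2KO and 0.241 ± 0.0624 CPM in Bach2WT mice (SD, n = 4 each), a ratio of 2.38 (exact permutation test, p = 0.0286). In edgeR its log2 fold change was 1.25 (SE 0.45) with a p of 0.0149 and an adjusted p of 0.593, and the adjusted p ranged from 0.274 to 0.921 over 18 alternatives. Females had mean levels of 0.580 CPM in Bach2KO and 0.245 CPM in Bach2WT mice, and males 0.570 and 0.238 CPM. Without Bach2KO mouse 3 the log2 fold change was 1.12.

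Cxcl16, the ligand of Cxcr6 and a scavenger receptor of macrophages and dendritic cells, overlapped between the genotypes. It had 103, 112, 119 and 134 counts in Bach2KO mice 1 to 4, or 0.636, 1.35, 1.57 and 0.694 CPM. In Bach2WT mice 1 to 4 it had 72, 71, 85 and 17 counts, or 0.799, 0.541, 0.592 and 0.245 CPM. Bach2KO mice 2 and 3 were above all Bach2WT mice, and Bach2KO mice 1 and 4 were below Bach2WT mouse 1.

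The ratio of the Cxcl16 means was 1.95 (1.06 ± 0.469 against 0.544 ± 0.229 CPM, SD, n = 4 each), with p = 0.143 in the exact permutation test. In edgeR, its log2 fold change was 0.95 (SE 0.43) with an adjusted p of 0.663. It was 0.68 without Bach2KO mouse 3.

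The receptors of both transmembrane ligands were counted in few reads. Cx3cr1, the fractalkine receptor of monocytes, macrophages and some lymphocytes, had 6, 30, 24 and 46 counts in Bach2KO mice 1 to 4 and 8, 86, 29 and 8 counts in Bach2WT mice 1 to 4 (log2 fold change -0.18, SE 0.81). Cxcr6 had 16 counts in all in Bach2KO and 10 in Bach2WT mice. Of the 4 listed proteases that act on these chemokines, all were tested and 0 had an unadjusted p under 0.05. The sheddases Adam10 and Adam17 had log2 fold changes of 0.39 (SE 0.29) and -0.02 (SE 0.49).

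Endothelial markers, set beside Cx3cl1, summed to 20.8, 15.1, 30.8 and 18.2 CPM in Bach2KO mice 1 to 4 and to 17.1, 17.6, 11.2 and 12.6 CPM in Bach2WT mice 1 to 4 over 6 genes (exact permutation test, p = 0.114), led by Pecam1 and Vwf. The endothelial cadherin Cdh5 did not overlap between the groups (2.32 to 7.25 CPM in Bach2KO and 1.44 to 2.19 CPM in Bach2WT mice, log2 fold change 1.07, SE 0.33; edgeR, adjusted p = 0.531). The duct epithelial keratin Krt7 did not overlap either (2.13 to 2.69 and 1.38 to 1.79 CPM, log2 fold change 0.57, SE 0.22; edgeR, adjusted p = 0.627), and both genes were named after their values were seen. Each was the only gene of its list without overlap, which held for 2.01% of all genes in this direction. The 6 duct markers summed to 21.3 to 29.9 CPM in Bach2KO and 17.4 to 25.9 CPM in Bach2WT mice (ratio of means 1.13, exact permutation test, p = 0.343). Of the 5 duct markers tested, 3 had log2 fold changes above 0 and 2 below. Macrophage markers, set beside Cxcl16, summed to 20.7 to 31.8 CPM in Bach2KO and to 15.4 to 28.0 CPM in Bach2WT mice over 7 genes. In Bach2WT mouse 2, C1qa alone gave 18.2 of the 28.0 CPM. Of the 7 macrophage genes, 5 had log2 fold changes above 0 and 2 below. An unadjusted p under 0.05 was found for 2 of them, both higher in Bach2KO mice, against 3.9% of all tested genes. The ratio of the group means was 1.45 for the endothelial sum and 1.20 for the macrophage sum, beside 2.38 for Cx3cl1 and 1.95 for Cxcl16. Their part in the levels of both chemokines was not tested.

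**Figure D3:**
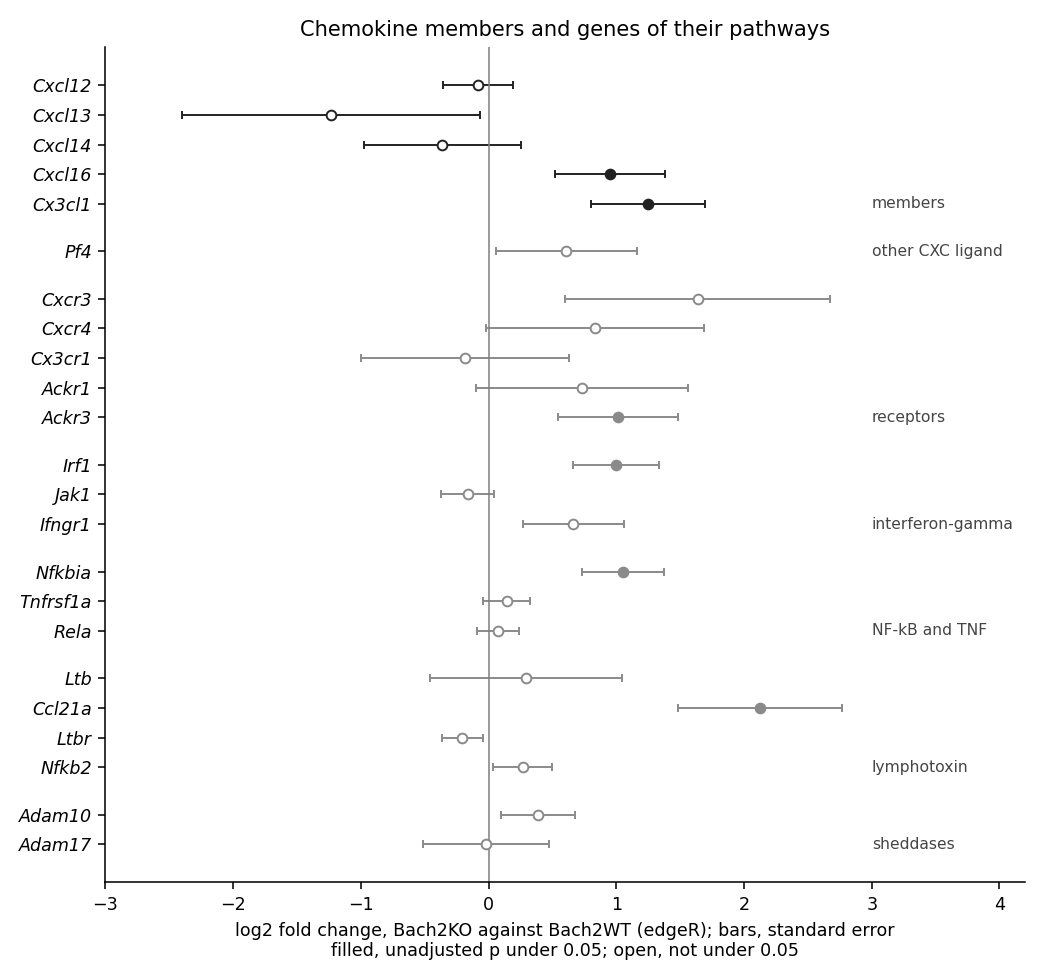
Log2 fold change of Bach2KO against Bach2WT (edgeR, x axis) for the 5 tested members and named tested genes of their pathways, with bars for 1 standard error and filled points for an unadjusted p under 0.05. Cx3cl1 (1.25) and Cxcl16 (0.95) are the filled members, and no gene shown passed the adjusted threshold.

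The homeostatic ligands Cxcl12, Cxcl13 and Cxcl14 gave log2 fold changes below 0 that did not pass the test. Cxcl12, which retains cells with Cxcr4 in tissues and bone marrow, was the member with the most counts. It had 429, 181, 266 and 523 counts in Bach2KO mice 1 to 4 and 345, 425, 448 and 104 counts in Bach2WT mice 1 to 4. At 2.76 ± 0.551 CPM in Bach2KO and 2.92 ± 0.999 CPM in Bach2WT mice (SD, n = 4 each), the groups overlapped, with Bach2WT mouse 4 the lowest of all 8.

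The log2 fold change of Cxcl12 was -0.08 (SE 0.28; edgeR, adjusted p = 0.975). Cxcr4, its signalling receptor, had a log2 fold change of 0.83 (SE 0.85; edgeR, adjusted p = 0.896). Ackr3, which takes up Cxcl12 without activating G proteins, had 159, 36, 88 and 78 counts in Bach2KO mice 1 to 4 and 29, 62, 34 and 31 counts in Bach2WT mice 1 to 4. Its log2 fold change was 1.01 (SE 0.47) with a p of 0.0494 and an adjusted p of 0.668 in edgeR. In CPM the groups overlapped, with Bach2WT mice 2 and 4 (0.472 and 0.446) above Bach2KO mice 2 and 4 (0.435 and 0.404).

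Cxcl13, which draws B cells with Cxcr5 into follicles, varied most between mice. It had 250, 0, 0 and 82 counts in Bach2KO mice 1 to 4 and 277, 117, 109 and 4 counts in Bach2WT mice 1 to 4, or 1.54, 0, 0 and 0.425 CPM and 3.08, 0.891, 0.759 and 0.0576 CPM. Mouse 1 of each genotype was the highest of its group, and Bach2KO mice 2 and 3 had no count, which allows up to 0.0362 and 0.0396 CPM (3 counts). The log2 fold change was -1.24 (SE 1.17; edgeR, adjusted p = 0.882), and the means were 0.492 ± 0.729 CPM in Bach2KO and 1.20 ± 1.31 CPM in Bach2WT mice (SD, n = 4 each; p = 0.4 by the exact permutation test). Leaving out Bach2WT mouse 1 moved the log2 fold change to -0.20, and leaving out Bach2KO mouse 1 moved it to -2.89.

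B cell genes were highest and lowest in much the same mice as Cxcl13. Cd79a and Cd79b, the signalling chains of the B cell receptor, had 142, 2, 0 and 57 counts and 85, 4, 2 and 56 counts in Bach2KO mice 1 to 4. In Bach2WT mice 1 to 4 they had 174, 86, 34 and 5 counts and 60, 68, 12 and 16 counts. Cxcr5 had 26, 0, 0 and 11 counts in Bach2KO mice and 40, 22, 0 and 0 counts in Bach2WT mice.

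The libraries without Cxcl13 counts, Bach2KO mice 2 and 3, also had no count of Cxcr5 and at most 4 counts of either B cell receptor chain. The 6 B cell markers summed to 0.0264 to 1.74 CPM in Bach2KO and to 0.320 to 3.85 CPM in Bach2WT mice, and in Bach2KO mouse 3 all of them but Cd79b were at 0. The part of B cell content in the Cxcl13 values was not tested.

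**Figure D4:**
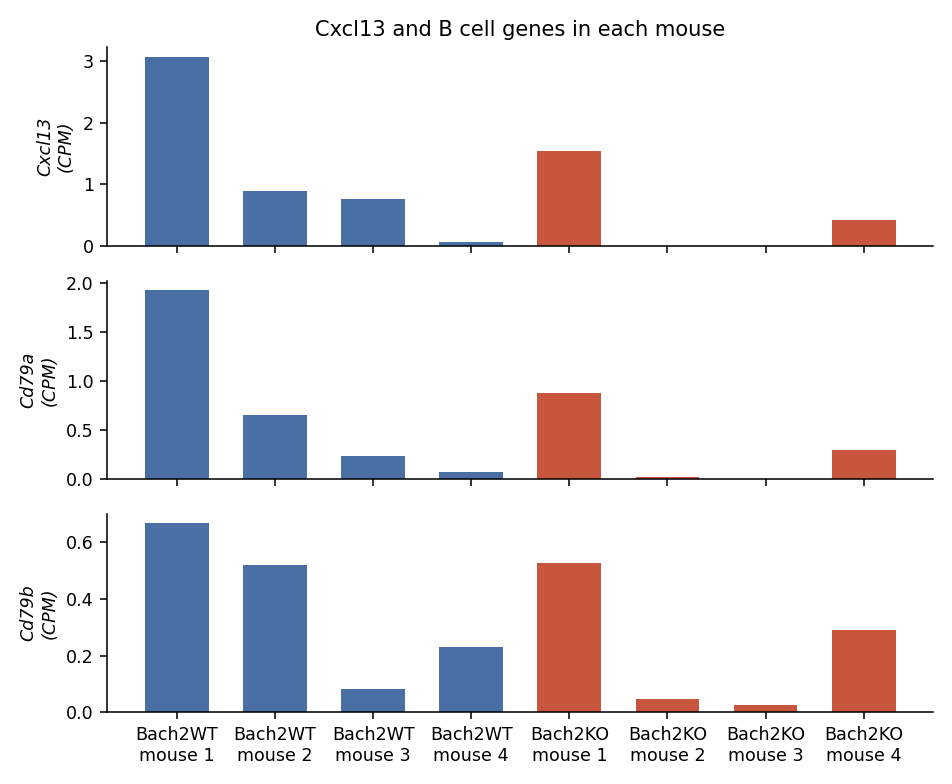
CPM of Cxcl13 and of the B cell genes Cd79a and Cd79b in each mouse (bars from 0, one bar per mouse, blue for Bach2WT and red for Bach2KO). Mouse 1 of Bach2WT has the highest bar in all 3 panels (3.08 CPM for Cxcl13), and Bach2KO mice 2 and 3 have no Cxcl13 and the lowest bars or none for both B cell genes.

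For lymphotoxin signalling and lymphoid organisation, the pathway that maintains Cxcl13 in follicles, 10 genes were listed. Of these, 7 were tested and 2 had an unadjusted p under 0.05, both higher in Bach2KO mice (Ccl21a and Relb, the latter named after its values were seen), against 3.9% of all tested genes. The list median log2 fold change was 0.73, beside 0.05 over all tested genes, and fell to 0.32 without Bach2KO mouse 3, 0.34 without Bach2WT mouse 4, and 0.44 without Bach2KO mouse 1 or Bach2WT mouse 3. Ccl21a, a T cell zone chemokine, had 750, 73, 84 and 157 counts in Bach2KO mice 1 to 4 and 88, 30, 37 and 18 counts in Bach2WT mice 1 to 4 (log2 fold change 2.13, SE 0.64; edgeR, adjusted p = 0.523). Without the filter on low counts, its adjusted p in edgeR was 0.0419, so that it was called there. DESeq2 gave a log2 fold change of 2.08 but no p for Ccl21a, whose highest count, 750, was in Bach2KO mouse 1. Bach2WT mouse 1 overlapped with the Bach2KO mice in CPM. Near-identical copies of this gene make its counts uncertain. Ltb and its receptor Ltbr had log2 fold changes of 0.29 (SE 0.75) and -0.21 (SE 0.16).

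Cxcl14, an epithelial and stromal chemokine, differed between mice more than between genotypes. It had 30, 22, 119 and 114 counts in Bach2KO mice 1 to 4 and 101, 54, 181 and 36 counts in Bach2WT mice 1 to 4, or 0.185, 0.266, 1.57 and 0.591 CPM and 1.12, 0.411, 1.26 and 0.518 CPM. The 2 Bach2KO females were the lowest of the 8 mice and the Bach2KO male mouse 3 was the highest. The log2 fold change was -0.36 (SE 0.61; edgeR, adjusted p = 0.945), and -1.25 without Bach2KO mouse 3.

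The mean level of Cxcl14 was 0.225 CPM in Bach2KO and 0.766 CPM in Bach2WT females, and 1.08 CPM in Bach2KO and 0.889 CPM in Bach2WT males. The interaction of sex and genotype did not pass the test in edgeR (2.02 on the log2 scale, SE 0.98, adjusted p = 0.827). The same test gave adjusted p-values of 0.839 to 1.00 for the other 4 tested members, with 2 mice per sex and genotype.

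The neutrophil-attracting ligands Cxcl1, Cxcl2 and Cxcl5 were near the detection limit in both genotypes. Cxcl1 was counted 4 times in Bach2KO mouse 1, 8 times in Bach2KO mouse 3 and 4 times in Bach2WT mouse 1, and in no other library. Cxcl2 had 10 counts, all in Bach2KO mouse 3, and Cxcl5 had 15 counts, all in Bach2KO mouse 2. No library held all 3 genes, and the Bach2WT mice had no count of Cxcl2 or Cxcl5.

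The means in Bach2KO mice were 0.0326 ± 0.0501 CPM for Cxcl1, 0.0330 ± 0.0660 CPM for Cxcl2 and 0.0453 ± 0.0906 CPM for Cxcl5 (SD, n = 4), each resting on 1 or 2 libraries. Exact permutation tests gave p = 0.714 for Cxcl1 and p = 1.0 for the other two. Without Bach2KO mouse 3, Cxcl2 had no count in any library. In the Bach2WT mice, 3 counts correspond to 0.0209 to 0.0432 CPM, so differences below this level were not detectable at this depth.

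The receptor of these ligands, Cxcr2, had 2 counts in all 8 libraries together, and Cxcr1 had no entry among the 21434 genes. Neutrophil markers summed over 5 genes to at least 0.207 CPM in each Bach2KO mouse and to 0 to 0.255 CPM in Bach2WT mice (exact permutation test, p = 0.0571), led by Csf3r and Retnlg. Of the 5, S100a8, S100a9 and Mpo were at 0 in all Bach2WT libraries. In Bach2KO mice 1 to 4, S100a8 had 4, 12, 40 and 2 counts and S100a9 had 12, 29, 9 and 6. Mpo had 0, 0, 0 and 6 counts there and was near the detection limit in both genotypes. The part of neutrophils in the counts of the 3 ligands was not tested.

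Among the signals that induce these ligands, Tnf had 8 and 2 counts in Bach2KO mice 1 and 4 and none in the other libraries, and Il1b had 37 counts in Bach2KO mouse 3 and 2 counts in Bach2WT mouse 1. Il17a had no entry. Of 15 listed genes of NF-kB, TNF, IL-1 and IL-17 signalling, 10 were tested and 2 had an unadjusted p under 0.05, both higher in Bach2KO mice (Nfkbia and Nfkbiz, the latter named after its values were seen), against 3.9% of all tested genes. The median log2 fold change of the list was 0.16, beside 0.05 over all tested genes, 0.96 when no filter was applied, and 0.56 without Bach2WT mouse 4. Nfkbia, the inhibitor of NF-kB that NF-kB itself induces, had 5.01, 2.16, 4.68 and 1.91 CPM in Bach2KO mice 1 to 4 and 2.10, 1.46, 1.52 and 1.55 CPM in Bach2WT mice 1 to 4. Its log2 fold change was 1.05 (SE 0.32; edgeR, adjusted p = 0.531), and Bach2KO mouse 4 overlapped with Bach2WT mouse 1. The subunit Rela had a log2 fold change of 0.07 (SE 0.16).

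Over all listed receptors, 8 of 9 were analysed and 5 were tested. Of these, only Ackr3 had an unadjusted p under 0.05 (higher in Bach2KO mice), against 3.9% of all tested genes. The median log2 fold change was 0.83, beside 0.05 over all tested genes. The venular scavenger Ackr1, which binds many CXC ligands, had 67, 6, 44 and 70 counts in Bach2KO mice 1 to 4 and 34, 50, 4 and 5 counts in Bach2WT mice 1 to 4 (log2 fold change 0.73, SE 0.83). Of 6 further CXC ligands, 4 were analysed and 1 was tested, the platelet chemokine Pf4 (log2 fold change 0.61, SE 0.55). Without Bach2KO mouse 3 this value was 0.17, and without Bach2WT mouse 4 it was 0.38. Ppbp, another platelet chemokine, had 18 counts, all in Bach2KO mice, and Cxcl15 had 2 counts, also in Bach2KO mice. Cxcl3 and Cxcl17 had no entry among the 21434 genes.

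The pattern of each member with at least 10 counts in every library was compared with that of all tested genes by the root mean square difference of standardized log2 CPM over the 8 libraries, where 0 is an identical pattern and the median over genes was 1.40 to 1.45. The 3 genes most like Cx3cl1 were 4930581F22Rik (0.167), Tinagl1 (0.241) and ENSMUSG00000120250 (0.246). For Cxcl16 they were Dyrk2 (0.186), Arhgap18 (0.207) and Fdxr (0.230). For Cxcl12 they were Sema3c (0.272), Ccdc71 (0.275) and Hpgd (0.290), and for Cxcl14 Tex264 (0.307), Crispld2 (0.352) and Trmt112 (0.376). The limit of 10 counts was not set for the matched genes. Below it in some library were 4930581F22Rik (4 to 27 counts), ENSMUSG00000120250 (2 to 28) and Hpgd (0 to 44). With 8 libraries, such likeness is a description of these values.

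The summed CPM of the 10 members was 5.74, 4.84, 7.94 and 5.10 in Bach2KO mice 1 to 4 and 9.12, 5.43, 5.93 and 2.59 in Bach2WT mice 1 to 4. The groups overlapped, with the highest and the lowest sum both in Bach2WT mice. Bach2KO libraries held counts of 7 to 8 members each and Bach2WT libraries of 5 to 7. The mean CPM was higher in Bach2KO mice for 7 of the 10 members and lower for the 3 homeostatic ligands. Among the 7, Cxcl1, Cxcl2 and Cxcl5 had counts in only 1 or 2 Bach2KO libraries each. In edgeR, 2 of the 5 tested members had a log2 fold change above 0, beside 7007 of the 12820 tested genes.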

How the data were processed

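RNA from 8 pancreata (4 Bach2WT, 4 Bach2KO) was sequenced as paired-end poly(A)-selected libraries; whether they were strand-specific is not given in the sources used here. Per the labels, the authors used fastp, HISAT2 2.2.1 and featureCounts 2.0.6 with build mm39. The authors deposited raw counts per gene and library. The deposited signal columns are counts divided by 1 size factor per library, and the deposited FPKM values are this signal per gene length on a common scale. The authors' own comparison of the genotypes (log2 fold change, p-value and its adjusted form per gene) also stands in the deposited table and was not used.

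CPM values used TMM factors over all counts. Bach2KO and Bach2WT libraries were tested against each other in edgeR 4.0.16 (quasi-likelihood, filterByExpr, no covariate, all 8 mice), with Benjamini-Hochberg adjustment over all genes tested. For single genes, an exact two-sided permutation test was run on the CPM values (smallest p = 0.0286). The libraries held 72299745 to 172029360 counts; 3 counts were taken as the limit for a count of 0, or 6 if both mates were counted (67.8% of counts from 1 to 99 were even). Alternatives were DESeq2 1.42.0, limma 3.58.1 on log2 FPKM, RLE factors, library sizes without the 30 most abundant genes, other filters, sex as a covariate, a replicate block, counts divided by 2, and leaving out each mouse. DESeq2 with each mouse left out was added after seeing the data.

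The members and gene lists were chosen with earlier results of these data known. Named were the members, other CXC ligands, receptors, chosen signalling genes, the most abundant pair of each other list, and the 3 genes most like a member; Relb, Nfkbiz, Cdh5, Krt7, Cpa1 and Prss2 were added after their values were seen. Promoter sequences are from RefSeq (GRCm38.p6). Replicates were separate mice. Values of some single genes are not reported here.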

Additional observations from a re-analysis of the deposited data

Results flagged for a closer look

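In 17 groups of 4 mice that had any count of a member, the highest or lowest value was compared with the others by Dixon's criterion. Its usual rate of about 1 in 20 groups by chance does not apply to the 3 groups below, since 3 of 4 values at 0 exceed the criterion for any count in the fourth. Cxcl1 in Bach2WT mice had 1 value apart from the rest, 0.0444 CPM in mouse 1, with the other 3 mice at 0. Cxcl2 in Bach2KO mice had 0.132 CPM in mouse 3, and Cxcl5 in Bach2KO mice had 0.181 CPM in mouse 2, each with the other 3 mice at 0. These values correspond to 4, 10 and 15 counts.

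Cxcl10 differed in direction between the sexes. The Bach2KO mean was above the Bach2WT mean by 0.175 CPM in males and lay at -0.0365 CPM relative to it in females, with every library of each sex on the same side. The female values came from 0 and 2 counts in Bach2KO and 6 and 4 counts in Bach2WT mice, near the limit of 3 or 6 counts. Cxcl10 did not pass the filter, so that this difference between the sexes was not tested in the edgeR fit, and it rests on 2 mice per sex and genotype.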

How the results depend on the processing

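Over all genes, edgeR called 1 gene, against 75 with DESeq2 (52 higher, 23 lower) and 73 without a filter (55 higher, 18 lower). It called 0 genes with at least 10 counts in every library, with sex as a covariate, with counts divided by 2, and with each mouse left out. With limma, 0 genes were called on log2(FPKM + 1) and 1 on log2(FPKM + 0.1). Of the members, edgeR called 0, DESeq2 called 1 (Cxcl9), and DESeq2 with each mouse left out called 0 to 1. No other alternative called a member. The median log2 fold change of the NF-kB list was 0.16, 0.96 without a filter, and 0.10 to 0.56 with each mouse left out (0.56 without Bach2WT mouse 4).

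The log2 fold change of Cxcl12 turned from -0.08 to 0.012 without Bach2KO mouse 2 and to 0.071 without Bach2WT mouse 1, and ranged from -0.30 to 0.071 with each mouse left out. The cause was not tested. The log2 fold changes of Cxcl13, Cxcl14, Cxcl16 and Cx3cl1 kept their direction under all alternatives run, with ranges of -2.89 to -0.20, -1.25 to -0.05, 0.18 to 1.18 and 0.11 to 1.40. The low ends of Cxcl16 and Cx3cl1 are on the log2(FPKM + 1) scale, which understates changes at FPKM far below 1. In the fits on counts they ranged from 0.68 to 1.18 and from 1.12 to 1.40.

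Mice with the same replicate number share only that number and their sex, so that sex is part of the deviations and of the replicate block. The deviations of same-numbered mice correlated at 0.212, -0.0344, -0.0409 and -0.0543 for numbers 1 to 4. With the replicate block, 0 genes and 0 members were called, and the log2 fold change was 1.26 for Cx3cl1 and 0.98 for Cxcl16. Depth limits the members below the filter, whose counts per library did not exceed 32.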
